A study of Caenorhabditis elegans with 4 samples.

Results

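The genes described here are those of the cytochrome P450 family of the nematode Caenorhabditis elegans outside the cyp-35 subfamily, with daf-9, a P450 gene named for its mutant phenotype. Cytochrome P450 enzymes hold a haem group and insert an oxygen atom into lipid-like substrates, drawing electrons from a reductase. In C. elegans they act on foreign compounds, on fatty acids and on sterols. daf-9 makes dafachronic acids, steroid hormones that bind the nuclear receptor daf-12 and commit the larva to reproductive growth instead of the arrested dauer larva.

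Wild-type larvae of the L3 stage, the third larval stage, were profiled on 4 microarrays with a pair of colour channels. Channel 2 of each array held mRNA of a different L3 preparation, channel 1 held the same kind of mixed reference from wild-type worms, and no mutant allele or treatment is named for either. The sources used here state neither the make-up of the reference nor whether preparations were separate cultures. The p-values thus cover the spread among these 4 preparations alone, and that spread can be technical. Each p-value uses a variance drawn partly from all genes tested, so the SDs printed below do not give it directly. Values are log2 ratios, likely of L3 over reference, because the labels name L3 first and the reference as channel 1. A positive value therefore means more transcript in L3, and in whole animals fewer cells of a type and less RNA per cell cannot be told apart.

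The members were found in the probe annotation as symbols that begin with cyp-, without those that begin with cyp-35, plus daf-9. This gave 66 probes, of which 63 carried 1 symbol and 3 carried 2. The 63 probes measured 58 genes, 54 on all 4 arrays and 4 on 3 arrays, out of 19943 genes and single probes tested. They fell into 19 subfamilies, the largest being cyp-13A with 11 genes and cyp-33C and cyp-34A with 9 each. The RefSeq gene table of assembly WBcel235 lists 70 such genes, of which 58 had a probe of their own and 4 (cyp-25A4, cyp-25A5, cyp-31A2 and cyp-31A3) were on the 2-symbol probes alone. The other 8, among them cyp-42A1 and cyp-31A5, were not analysed here.

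More members were higher in L3 than lower. In limma with Benjamini-Hochberg adjustment over all 19943 tests and a threshold of 0.05, 11 of the 58 genes were higher in L3 and 6 were lower, while 41 did not pass. Over all genes tested, 8.31% were higher and 10.8% lower, 19.1% in all, so the lower count is close to that background. At an unadjusted p under 0.05 there were 28 members, beside 35.1% of all genes. The median of the 58 mean log2 ratios was 0.17, beside 0.02 for all genes tested, and the median size of the mean regardless of sign was 0.50 beside 0.35. The ratios had 1 sign on every measured array in 35 of the 58 genes (60.3%), beside 45.9% of all genes tested. By size, 8 members were called at least 2-fold higher and 4 at least 2-fold lower, where 4.61% and 6.40% of all genes were.

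The counts depended on the preparations used. Without preparation 1, 6 members were higher and 2 lower (3.94% and 5.47% of all genes tested). Without preparation 2 there were 9 and 5 (5.11% and 7.53%). Without preparation 3 there were 7 and 2 (4.55% and 5.02%), and without preparation 4 there were 9 and 7 (5.44% and 8.19%). The array titles carry dates in different months, shared by preparations 1 and 2 and by 3 and 4, and what the dates mark is not stated. In preparations 1 and 2 alone 5 members were higher and 1 lower (3.55% and 4.13%), and in 3 and 4 alone 4 were higher and 0 lower (3.64% and 4.97%), each with 2 arrays per fit in limma. In that last fit, 14 members were higher and 7 lower at an unadjusted p under 0.05 in limma. The share of all genes at that threshold in this fit was not counted.

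**Figure D1:**
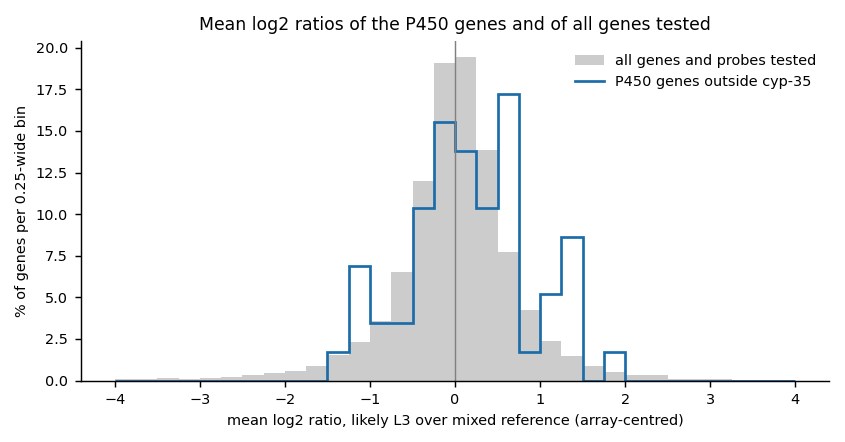
Share of genes (vertical axis, % per bin 0.25 wide) by mean log2 ratio (horizontal axis, likely L3 over reference), for the 58 P450 genes (line) and all 19943 genes and probes tested (grey); means beyond 4 in either direction, where no P450 gene lay, are not drawn. The P450 genes lay between -1.42 and 1.87, with fewer members than all genes close to 0 and more between 0.5 and 0.75.

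Between preparations, the log2 ratios of the members correlated about as much as those of all genes tested. The member medians were 0.16, 0.17, 0.02 and 0.12 in preparations 1 to 4. Over the 54 genes measured on all arrays, the Pearson correlation between a pair of preparations lay between 0.645 and 0.760. Over all genes tested it lay between 0.630 and 0.725. Of the 54 genes, 40 to 47 had the same sign in a pair of preparations, and that share of all genes tested was not counted. These are descriptions across genes, which are not independent replicates, and all arrays share the reference. Between 30 and 34 of the 58 members lay above 0 in each preparation, beside 9793 to 9933 of the 19943 tested. The members spread most widely in preparation 2, with an interquartile range of 1.26 on the log2 scale, and least in preparation 4, with 0.47. All genes tested did the same, with 1.15 and 0.55.

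**Figure D2:**
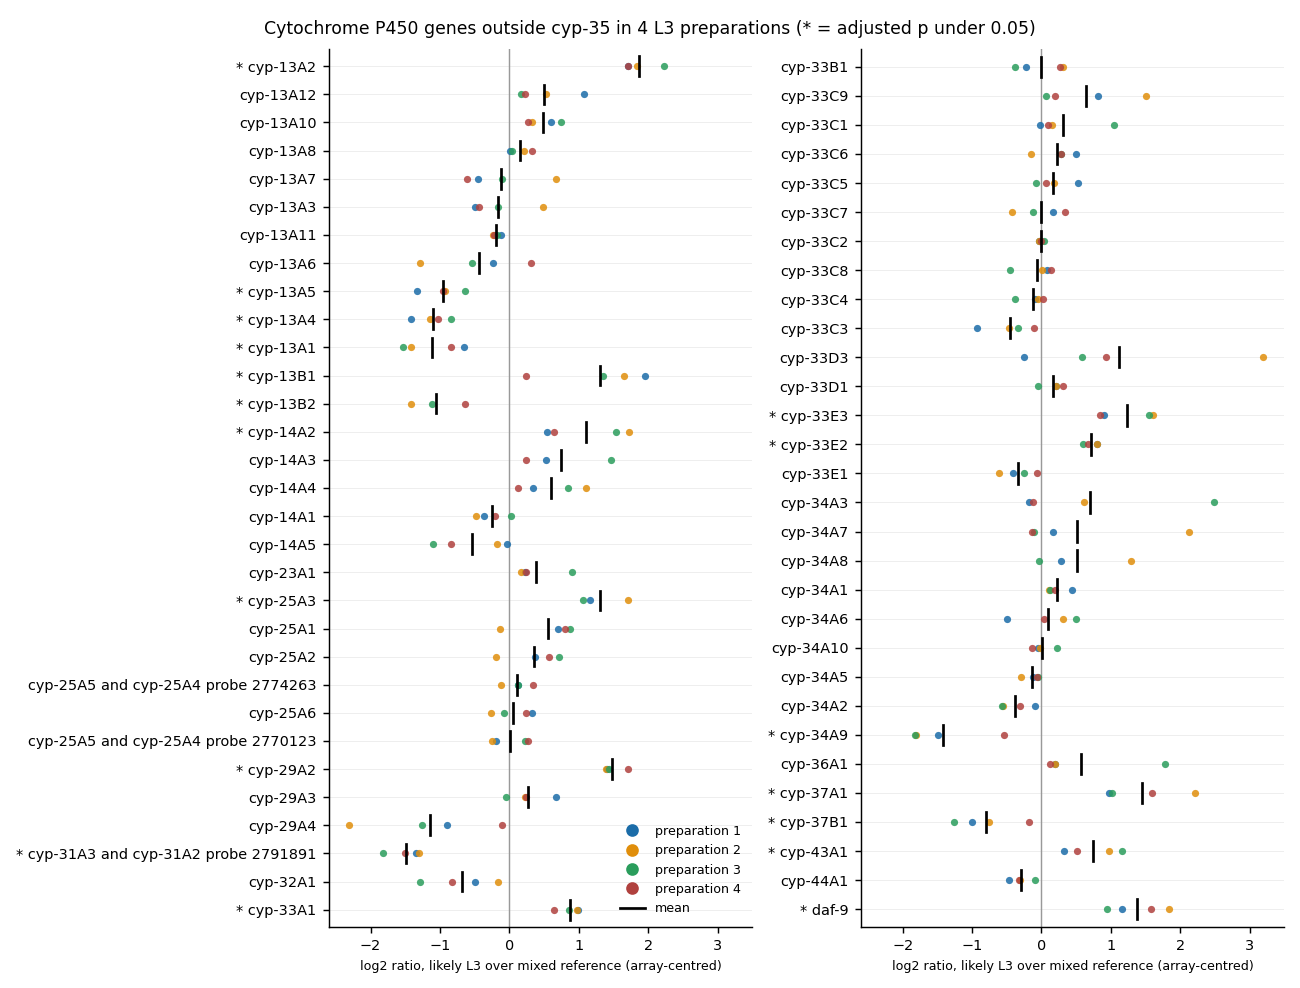
Log2 ratio (horizontal axis, array-centred, likely L3 over reference) of each P450 gene or 2-symbol probe (rows, by subfamily) in preparations 1 to 4 (coloured points) with the mean (black bar); an asterisk marks an adjusted p under 0.05. Both cyp-13B genes passed in opposite directions, and no cyp-33C gene passed, where 19.1% of all genes tested did.

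Hormone synthesis was represented by daf-9, which was higher in L3 on every array. Its log2 ratios were 1.16, 1.84, 0.95 and 1.58 in preparations 1 to 4. All 4 values lay well above 0, with a mean of 1.38 ± 0.40 (SD, n = 4), or 2.61-fold (95% interval of the log2 ratio 0.92 to 1.85, adjusted p = 0.00582). The gene is known to be expressed in the neuroendocrine XXX cells and, in larvae past the dauer decision, in the epidermis. Of 8 epidermal marker genes tested, 5 were higher and 3 did not pass (median 1.25, preparation medians 0.96, 0.78, 0.91 and 1.30). The higher ones were dpy-7, rol-6, col-12, dpy-13 and sqt-3. Those that did not pass were bli-1 (2.02 ± 1.85), elt-3 (-0.34 ± 0.29) and lin-26 (-0.33 ± 0.42), the last 2 with means below 0. The part of epidermal RNA in the daf-9 ratio was not tested.

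Among the genes that act with daf-9, 1 of 8 tested passed, which is no more than the 19.1% called over all genes. This was daf-36, which encodes the oxygenase of the first step from cholesterol towards dafachronic acids. Its ratios were 1.74, 2.39, 2.74 and 1.59 in preparations 1 to 4, with a mean of 2.12 ± 0.54 (adjusted p = 0.00259). The other 7 did not pass. They were strm-1, a sterol methyltransferase gene that draws sterols away from the pathway (0.95 ± 0.77), and the sterol transport genes ncr-2 (0.55 ± 0.29) and ncr-1 (-0.36 ± 0.50). The dehydrogenase genes dhs-16 (0.25 ± 0.51) and hsd-2 (0.12 ± 0.47) lay closer to 0. So did the receptor gene daf-12 (-0.15 ± 0.53) and its corepressor gene din-1 (-0.24 ± 0.55), each with both signs among the preparations. hsd-1, hsd-3 and daf-40 were not analysed here.

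The lowest mean of the family belonged to the probe annotated to both cyp-31A2 and cyp-31A3, genes needed for the lipid layer of the eggshell. The value cannot be assigned to either gene, and the probe is not counted among the 58. Its log2 ratios were -1.35, -1.30, -1.83 and -1.50 in preparations 1 to 4. All lay below -1, with a mean of -1.49 ± 0.24, or 2.82-fold lower in L3 (adjusted p = 0.00241). The markers of oocyte and embryo were lower as well, 15 of 15 tested, with -3.95 as the middle of their means and preparation medians of -3.72, -4.29, -4.03 and -3.42. Their part in the cyp-31A value was not tested. The adult markers vit-2, vit-5, vit-6 and col-19 were all lower, between -6.32 and -3.54, and vit-1, vit-3 and vit-4 were not analysed here. The marker lists were chosen with earlier results of these data known, so these values are no independent check of the stage label.

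Both cyp-33E2 and cyp-29A3, whose enzymes convert long-chain polyunsaturated fatty acids to eicosanoids, lay above 0 on average, but 1 of them passed. cyp-33E2, known from the pharynx, had ratios of 0.80, 0.80, 0.60 and 0.67 in preparations 1 to 4. All lay above 0 and close together, and the mean of 0.72 ± 0.10 (1.64-fold, adjusted p = 0.0178) had the smallest SD of the 17 called genes. The threshold was missed for cyp-33E2 when preparation 1, 3 or 4 was left out (adjusted p = 0.0783, 0.0599 and 0.0557) and with a trended, robust variance (0.0516). That variance trend was fitted against the mean log2 ratio itself, because spot intensities were not used. cyp-29A3 had ratios of 0.67, 0.22, -0.05 and 0.24, with both signs and a mean of 0.27 ± 0.30 (adjusted p = 0.3).

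The cyp-13A subfamily, the largest, held the member with the highest mean and 3 of the 6 that were lower. cyp-13A2 had ratios of 1.70, 1.83, 2.22 and 1.71 in preparations 1 to 4. Every preparation lay above 1.7, and the mean of 1.87 ± 0.24 (3.65-fold higher, adjusted p = 0.00135) ranked 266 from the top of the 19943 tested. Its neighbour cyp-13A1 had ratios of -0.66, -1.42, -1.53 and -0.85, a mean of -1.11 ± 0.43 (2.17-fold lower, adjusted p = 0.0133). The values of the 2 genes did not overlap, and cyp-13A1 was lost without preparation 3 (adjusted p = 0.0559). cyp-13A4 had ratios of -1.42, -1.14, -0.84 and -1.03, a mean of -1.11 ± 0.24 (adjusted p = 0.00639). cyp-13A5 had ratios of -1.33, -0.92, -0.64 and -0.95, a mean of -0.96 ± 0.28 (adjusted p = 0.0119, and 0.0549 without preparation 1). cyp-13A4 and cyp-13A5 lie next to each other, and both were lowest in preparation 1 and highest in 3. Probe sequences were not used here, so whether a probe binds transcripts of several similar P450 genes was not tested.

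The other 7 cyp-13A genes did not pass, with means between -0.44 ± 0.66 (cyp-13A6) and 0.50 ± 0.42 (cyp-13A12). cyp-13A12, whose enzyme is known for its part in the response to reoxygenation, was above 0 on every array, at 1.07, 0.52, 0.17 and 0.22 in preparations 1 to 4 (adjusted p = 0.129). cyp-13A7, known for its induction by the drug rifampicin, lay above 0 in preparation 2 alone, at -0.45, 0.66, -0.10 and -0.61. So did cyp-13A3, at -0.50, 0.48, -0.17 and -0.44. cyp-13A6 was lowest in preparation 2, at -1.28, and highest in preparation 4, at 0.31. The range of means within cyp-13A was 2.98 on the log2 scale, the widest of the subfamilies.

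The pair of cyp-13B genes, on chromosome X, passed in opposite directions. cyp-13B1 had ratios of 1.96, 1.65, 1.35 and 0.24 in preparations 1 to 4, a mean of 1.30 ± 0.75 (2.46-fold higher, adjusted p = 0.0267). Preparation 4 lay far below the others, and without it the mean was 1.65 (adjusted p = 0.0127). Leaving out preparation 1, 2 or 3 ended the call (adjusted p = 0.107, 0.0797 and 0.0901), and the mean of preparations 1 and 2 was 1.81 beside 0.79 in 3 and 4. cyp-13B2 was measured on 3 arrays, at -1.41, -1.11 and -0.64 in preparations 2 to 4, a mean of -1.06 ± 0.39 (n = 3, 2.08-fold lower, adjusted p = 0.0281). Its call was lost without preparation 1, where it had no value (adjusted p = 0.0506), and without 2 or 3 (0.0837 and 0.114). The values of the 2 genes did not overlap.

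In cyp-14A 1 of 5 genes passed. cyp-14A2 had ratios of 0.54, 1.72, 1.53 and 0.64 in preparations 1 to 4, a mean of 1.11 ± 0.61 (2.15-fold higher, adjusted p = 0.0268). Preparations 2 and 3 lay well above the others, and leaving out either ended the call (adjusted p = 0.0688 and 0.101). The neighbours cyp-14A3 (0.74 ± 0.64, n = 3, at 0.53, 1.46 and 0.24 in preparations 1, 3 and 4) and cyp-14A4 (0.60 ± 0.45) were above 0 wherever measured without passing. cyp-14A4 was also highest in preparations 2 and 3, with 0.33, 1.10, 0.84 and 0.12. cyp-14A1 had a mean of -0.26 ± 0.21. cyp-14A5, which lies on chromosome V away from the other 4, had a mean of -0.54 ± 0.51.

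Of the 4 cyp-25A genes with a probe of their own 1 passed. cyp-25A3 was measured on 3 arrays, at 1.16, 1.71 and 1.06 in preparations 1 to 3, a mean of 1.31 ± 0.35 (n = 3, 2.48-fold higher, adjusted p = 0.0136, and 0.0654 without preparation 1). cyp-25A1 had ratios of 0.71, -0.13, 0.87 and 0.80, so that preparation 2 alone lay below 0. Its mean of 0.56 ± 0.47 did not pass (adjusted p = 0.112), and without preparation 2 it did, at 0.79 (adjusted p = 0.0303). cyp-25A2 was also below 0 in preparation 2 alone, at 0.36, -0.20, 0.71 and 0.56 (mean 0.36 ± 0.40). cyp-25A6 had a mean of 0.05 ± 0.27. The 2 probes annotated to both cyp-25A4 and cyp-25A5 had means of 0.01 ± 0.27 and 0.11 ± 0.19, with preparation 2 below 0 on both. cyp-25A5 is a pseudogene in the RefSeq table.

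In cyp-29A the 3 genes lay far apart. cyp-29A2 had ratios of 1.40, 1.39, 1.43 and 1.71 in preparations 1 to 4, a mean of 1.48 ± 0.15 (2.80-fold higher, adjusted p = 0.00201). Its lowest value lay above every value of cyp-29A3. cyp-29A4 was below 0 on every array, at -0.90, -2.32, -1.26 and -0.11. The spread of 0.92 (SD) around its mean of -1.15 left it outside the threshold (adjusted p = 0.0630). It passed with arrays scaled to a common spread (mean -0.98, adjusted p = 0.0334), with quantile normalization (-1.04, 0.0341), with the month in the array titles as a random block (0.0468), and without preparation 4 (-1.49, 0.0408).

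Of the 16 cyp-33 genes 3 were higher and 13 did not pass, and the 3 lay outside the letter C. cyp-33E3, next to cyp-33E2 on chromosome IV, had ratios of 0.91, 1.60, 1.55 and 0.84 in preparations 1 to 4, a mean of 1.23 ± 0.41 (2.34-fold higher, adjusted p = 0.00873). cyp-33A1 had ratios of 0.99, 0.98, 0.86 and 0.64, a mean of 0.87 ± 0.16 (1.82-fold higher, adjusted p = 0.0111, and 0.0574 without preparation 1). cyp-33E1, also on chromosome IV, was below 0 on every array (-0.34 ± 0.23, adjusted p = 0.184). None of the 9 cyp-33C genes passed in limma, where 19.1% of all genes tested did. At an unadjusted p under 0.05 in limma there were 2, cyp-33C3 (-0.46 ± 0.35) and cyp-33C9 (0.65 ± 0.66), beside 35.1% of all genes. The cyp-33C means lay between these 2, with a median of -0.01. Whether cyp-33C differs from all genes was not tested. cyp-33B1 (-0.01 ± 0.35) and cyp-33D1 (0.17 ± 0.15) lay near 0.

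cyp-33D3 was the member with the largest spread between preparations. Its ratios were -0.26, 3.19, 0.59 and 0.93 in preparations 1 to 4, the widest range of the family, with preparation 2 at the highest single value of the family. The mean of 1.11 ± 1.47 did not pass (adjusted p = 0.182). The next largest SDs were those of cyp-34A3 (1.24) and cyp-34A7 (1.09). cyp-34A3 stood at 2.48 in preparation 3, with the others between -0.18 and 0.61, and cyp-34A7 at 2.13 in preparation 2, with the others between -0.13 and 0.17.

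Of the 9 cyp-34A genes 1 passed, and it was lower in L3. cyp-34A9, also known as dod-16 for its place downstream of the insulin-signalling factor daf-16, had ratios of -1.49, -1.81, -1.83 and -0.54 in preparations 1 to 4. Preparation 4 lay closest to 0, and the mean of -1.42 ± 0.61 (2.67-fold lower, adjusted p = 0.0121) was the lowest of the 58 genes. Leaving out preparation 1 or 3 ended the call of cyp-34A9 (adjusted p = 0.0609 and 0.0539). cyp-34A10 and cyp-34A8, on either side of it, had means of 0.00 ± 0.15 and 0.51 ± 0.69 (n = 3). The other cyp-34A means lay between -0.38 ± 0.23 (cyp-34A2) and 0.70 ± 1.24 (cyp-34A3, a pseudogene in the RefSeq table).

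The cyp-37 genes passed in opposite directions, like the cyp-13B genes. cyp-37A1 had ratios of 0.97, 2.22, 1.01 and 1.59 in preparations 1 to 4, a mean of 1.45 ± 0.59 (2.73-fold higher, adjusted p = 0.0104). cyp-37B1 had ratios of -0.99, -0.76, -1.26 and -0.18, a mean of -0.80 ± 0.46 (1.74-fold lower, adjusted p = 0.0433). The cyp-37B1 call did not hold when preparation 1, 2 or 3 was left out (adjusted p = 0.154, 0.0933 and 0.142). These genes are the sole members of their letters and lie on chromosomes II and V.

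Of 5 further genes that are the sole measured members of their subfamilies, 1 passed. cyp-43A1 had ratios of 0.32, 0.97, 1.16 and 0.51 in preparations 1 to 4, a mean of 0.74 ± 0.39 (1.67-fold higher, adjusted p = 0.0415), and leaving out any 1 preparation ended its call (adjusted p = 0.0681, 0.108, 0.139 and 0.0813 without 1 to 4) and with a trended, robust variance (0.0705). cyp-32A1 was below 0 on every array (-0.69 ± 0.48, adjusted p = 0.0694), and passed without preparation 2 (-0.87, adjusted p = 0.0494). cyp-36A1, which acts in neurons downstream of the oxygen-sensing gene egl-9, had ratios of 0.19, 0.19, 1.77 and 0.12. Preparation 3 lay far above the rest, and the mean of 0.57 ± 0.81 did not pass. cyp-23A1 (0.39 ± 0.35) was likewise highest in preparation 3, at 0.91, with the others between 0.17 and 0.24. cyp-44A1, which is related to the mitochondrial P450 enzymes of animals, was below 0 on every array (-0.30 ± 0.15, adjusted p = 0.196).

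Genes next to each other on a chromosome did not share a direction throughout. In the gene order of the RefSeq table, 34 of the 58 members lay in 9 runs of P450 genes with at most 5 other genes between neighbours. The longest run of members, cyp-13A1 to cyp-13A8 on chromosome II, held 8 measured genes, 1 higher and 3 lower. The run of cyp-35 and cyp-34A genes on chromosome V held 6 members, of which cyp-34A9 was lower and the others did not pass, beside 4 cyp-35 genes with means between 0.24 and 3.62. The run cyp-33C4 to cyp-33C7 held 5 members between -0.46 and 0.23, none called, where 19.1% of all genes tested were. In the 4-gene run of cyp-14A on chromosome X and the 3 measured genes of the cyp-25A run on chromosome III, 1 gene each was higher. cyp-33E2 and cyp-33E3 formed the run in which both genes passed, and in the same direction. By chromosome, X held 8 members with 4 higher and 1 lower, where 12.9% of all named genes tested on X were higher and 8.97% lower. Chromosome V held 28 members with 2 higher and 2 lower (9.76% and 10.9% of its named genes), and II held 12 with 2 higher and 3 lower (9.32% and 12.3%). Chromosome IV held 4 members, of which 2 were higher (9.88%), III held 5, of which 1 was higher (7.87%), and the 1 member on I did not pass. The difference between chromosomes was not tested.

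**Figure D3:**
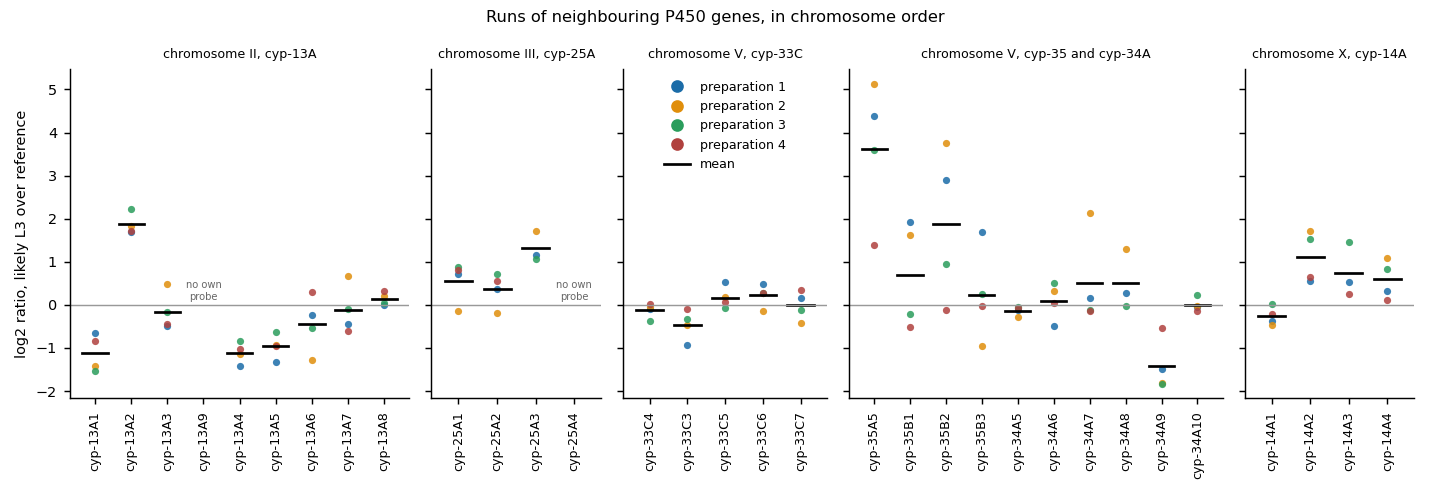
Log2 ratio (vertical axis, likely L3 over reference) in preparations 1 to 4 (points) and mean (bar) of P450 genes in 5 runs of neighbours, ordered along each chromosome; cyp-35 genes are drawn for their place in the chromosome V run. cyp-13A2 stands at 1.87 between cyp-13A1 at -1.11 and cyp-13A3 at -0.16.

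A pair of probes measured 5 of the 58 genes, and the probes of a gene differed by up to 3.62 in 1 preparation. For cyp-34A3, probe 2792969 read 4.29 in preparation 3 where probe 2796539 read 0.67. For cyp-34A7, probe 2799553 read 2.92 in preparation 2 where probe 2784971 read 1.33. Both probes of each gene were thus highest in the same preparation, to different extents. For cyp-33C2 the probes had opposite signs on all 4 arrays, so its mean of -0.01 ± 0.03 and small SD came from averaging, with probe means of -0.12 ± 0.33 and 0.09 ± 0.30. The probes of cyp-13A11 differed most in preparation 2, by 1.14, and those of cyp-33E1 by at most 0.30. None of these 10 probes passed in limma by itself.

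**Figure D4:**
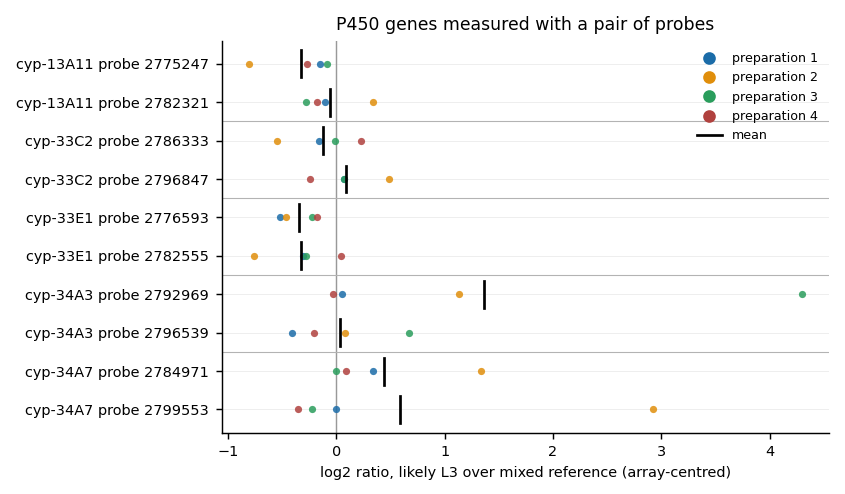
Log2 ratio (horizontal axis, likely L3 over reference) of each probe of the 5 genes with a pair of probes, in preparations 1 to 4 (points) with the mean (bar). The probes of cyp-34A3 differ most, by 3.62 in preparation 3.

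Electron and haem supply, which every P450 enzyme needs, were followed in 7 tested genes, of which 4 were higher and 3 did not pass. Of 3 electron supply genes 1 was higher and of 4 haem genes 3 were, where 8.31% of all genes tested were higher. The lists were chosen with earlier results of these data known, so these counts are no test of either supply. hrg-2, hrg-5 and hrg-6 were not analysed here. emb-8, the gene of the P450 reductase, was above 0 on every array, at 0.03, 0.37, 0.58 and 0.46 in preparations 1 to 4, without passing (0.36 ± 0.23, adjusted p = 0.159). Of the cytochrome b5 genes, cytb-5.1 was higher (0.69 ± 0.23, adjusted p = 0.0284) and cytb-5.2 was below 0 on every array without passing (-0.63 ± 0.50). C. elegans does not make haem and takes it up through hrg transporters. hrg-4, the gene of an intestinal haem importer, had ratios of 5.17, 3.68, 2.15 and 1.23, a mean of 3.06 ± 1.73 (adjusted p = 0.0185). hrg-7, whose secreted product signals haem state between intestine and neurons, had ratios of 1.52, 4.32, 2.88 and 3.41 (3.03 ± 1.17, adjusted p = 0.00577). hrg-3, the gene of a haem carrier protein secreted by the intestine, had 3.48, 3.05, 0.98 and 0.62 (2.03 ± 1.44, adjusted p = 0.0385). hrg-1, another transporter gene, was near 0 (-0.08 ± 0.51). Both hrg-3 and hrg-4 were higher in preparations 1 and 2 than in 3 and 4, without overlap, while the values of hrg-7 and hrg-1 overlapped. The share of all genes tested with such a split was not counted. Of 11 intestinal markers 5 were higher and 6 did not pass (median 0.42, preparation medians 0.99, 0.67, 0.30 and 0.34). The higher ones were ges-1, act-5, ifb-2, pho-1 and ifc-2. The others lay between -0.56 ± 0.41 (cpr-6) and 0.42 ± 0.67 (mtl-2), with end-1, asp-1 and elt-7 also below 0 on average and elt-2 above. The part of intestinal RNA in the haem gene ratios was not tested.

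Of 13 tested genes on a list of regulators reported for P450 genes in C. elegans, 2 were higher and 3 lower. Over all genes tested 8.31% and 10.8% were, so that these counts exceed the background by few genes. Whether each acts on the members described here was not tested. The median of the list was -0.35, beside 0.02 for all genes. nhr-8, a nuclear receptor gene of drug resistance and sterol balance, had ratios of 1.15, 1.61, 1.28 and 1.17 in preparations 1 to 4 (1.30 ± 0.21, adjusted p = 0.00348). nhr-68, another nuclear receptor gene, was higher with 1.45, 1.66, -0.03 and 1.60 (1.17 ± 0.80, adjusted p = 0.0434), preparation 3 being near 0. egl-9, the prolyl hydroxylase gene of the oxygen response, was lower, at -1.37, -1.46, -1.04 and -0.80 (-1.17 ± 0.30, adjusted p = 0.00681). The fat metabolism regulator nhr-49 (-0.69 ± 0.30, adjusted p = 0.0363) and ahr-1, the worm aryl hydrocarbon receptor gene (-0.69 ± 0.36, adjusted p = 0.0456), were lower by less. The other 8 did not pass, with means between -0.55 ± 0.25 (daf-16) and 0.33 ± 0.24 (elt-2). Among them skn-1, the stress response factor gene, lay at 0.01 ± 0.31, and hif-1, the target of egl-9, at -0.29 ± 0.26.

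**Figure D5:**
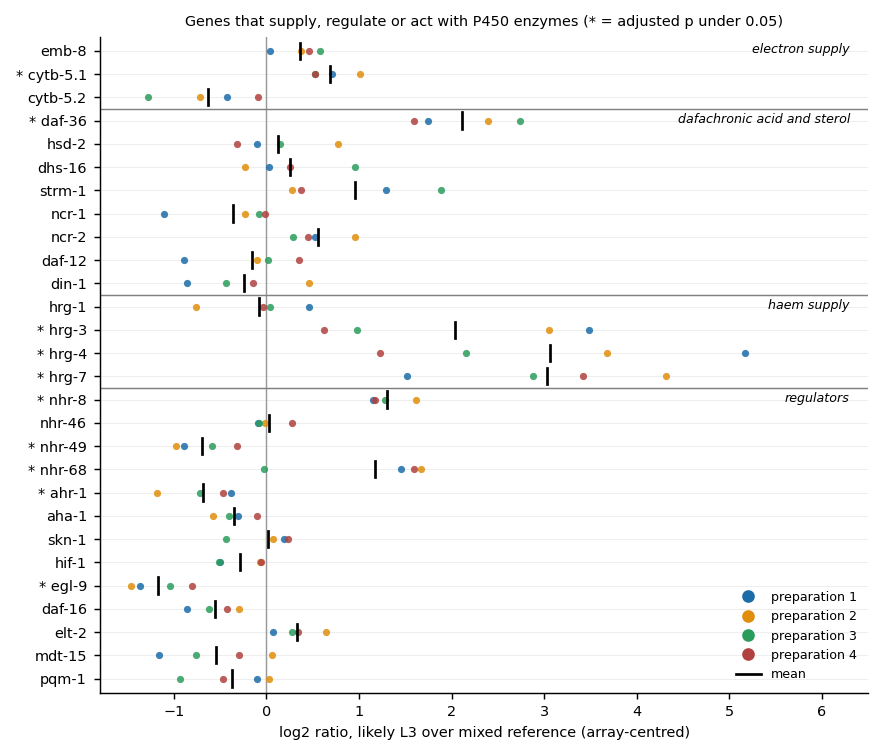
Log2 ratio (horizontal axis, likely L3 over reference) in preparations 1 to 4 (points) with the mean (bar) of genes for electron supply, dafachronic acids and sterols, haem supply and regulation; an asterisk marks an adjusted p under 0.05. hrg-4, hrg-7 and daf-36 have the highest means, 3.06, 3.03 and 2.12, and egl-9 the lowest, -1.17.

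The cyp-35 genes stood higher and varied more than the members. Of 10 cyp-35 genes 4 were higher and 6 did not pass, with a median of 2.29 and preparation medians of 2.63, 3.43, 0.78 and 0.62, beside member medians of 0.02 to 0.17. The median SD between preparations was 1.43 for the cyp-35 genes and 0.37 for the members, beside 0.36 for all genes tested. The difference between the subfamilies was not tested, since the lists were chosen with results of these data known.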

How the data were processed

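The authors deposited a log2 ratio for each probe on each array. No source used here states how they corrected background, normalized or filtered spots, or which dyes they used. As deposited, array medians were 0.02, 0.00, -0.03 and -0.01, and raising 2 to each value gave a ratio in whole steps of 0.001 for at least 99.96% of values (tolerance 0.02 steps). With no spot intensities used, signal over background is unknown, and the 4 arrays limit the precision. A channel bias repeated on all arrays cannot be told apart from an RNA difference, and the spread of the reference is not included.

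Of 21632 probes, 16450 had 1 gene symbol, 247 several and 4935 none here. RefSeq (WBcel235) symbols, matched by Entrez number, left every member's name unchanged. Each array was centred on its median, the probes of a gene were averaged, and features with values on at least 3 arrays entered an intercept-only limma fit (version 3.58.1, R 4.3.3; eBayes, two-sided, Benjamini-Hochberg over 19943 tests), which was tested on simulated data. An exact sign-flip test on 4 arrays cannot go below p = 0.125 and was not used. Arrays correlated with Pearson r of 0.620 to 0.723 over probes. Members and lists were chosen with earlier results of these data known. Per-array values are given for called genes, daf-9, the cyp-31A probe and the 3 genes with the largest SD; the likeness of P450 proteins, also planned, was not analysed here, and other genes were singled out after their values were seen. Alternatives changed centring, scaling, normalization, the missing-value filter, probe averaging, names, the variance model, the title month and the arrays used.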

Additional observations from a re-analysis of the deposited data

Results flagged for a closer look

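In 6 of the 57 genes and 2-symbol probes with a value on all 4 arrays, 1 preparation lay apart from the other 3 by Dixon's test at its 95% level. Chance flags about 1 group in 20. The share of all genes tested that Dixon's test flags was not counted, so whether members stand out is unknown. cyp-36A1 stood at 1.77 in preparation 3, with the others between 0.12 and 0.19. cyp-23A1 (0.91) and cyp-33C1 (1.05) were also highest in preparation 3. cyp-34A7 stood at 2.13 in preparation 2, the mean of probe values of 2.92 and 1.33. cyp-25A1 was lowest in preparation 2, at -0.13, with the others between 0.71 and 0.87. cyp-29A2 was highest in preparation 4, at 1.71, with the others between 1.39 and 1.43, so that all 4 values lay above 1.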

How the results depend on the processing

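Of the 17 called genes, 6 kept their call without any 1 preparation: cyp-13A2, cyp-29A2, cyp-37A1, daf-9, cyp-33E3 and cyp-13A4. The share of all called genes that did so was not counted. Over all genes tested, calls in either direction fell from 19.1% to between 9.41% (without preparation 1) and 13.6% (without preparation 4). Without 1 preparation in turn, 6 to 9 members were higher and 2 to 7 lower, with 3 arrays in each fit and a member median of 0.14 to 0.16. Without preparation 1 these counts were 6 and 2, and without preparation 3 they were 7 and 2. The arrays carry titles from 2 months, with preparations 1 and 2 in one and 3 and 4 in the other, and what the month marks is not stated. In preparations 1 and 2 alone 5 members were higher and 1 lower of 56, and in 3 and 4 alone 4 were higher and 0 lower of 56, each with 2 arrays (3.55% higher and 4.13% lower, and 3.64% and 4.97%, of all genes tested). At an unadjusted p under 0.05 in limma, 14 members were higher and 7 lower in preparations 3 and 4, and the share of all genes was not counted. The member median was 0.10 in preparations 3 and 4 alone. With the title month as a random block (correlation -0.117, which lowers standard errors) 11 were higher and 7 lower, beside 1998 and 2491 of the 19943 tested. The other settings gave 9 to 11 higher (9 with the trended, robust variance) and 5 to 7 lower, beside 5.23% (trended, robust variance) to 1998 of 19943 (quantile normalization) higher and 10.6% to 12.5% lower over all genes. The lower counts are thus near background, and no called gene changed sign in any of the 15 alternatives. The cause of the changed counts was not tested. No paired analysis was possible because there is 1 group. Signal over background is unknown, so these data do not show whether members near 0 were expressed.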
